A study of Homo sapiens with 8 samples.

Results

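The genes described here were 40 genes of the T-cell receptor signalling pathway, chosen by name: the chains of the receptor complex, the surface receptors that act with it, the kinases and phosphatases next to it, the adaptors, and the branches downstream. Of the 40 listed genes, 39 had a row in the expression table of 13453 genes, and 38 had the mean level of at least 1 FPKM (fragments scaled to transcript length and to the number mapped in the library) over all libraries that was required for testing, which 11427 genes met. LAT, the membrane adaptor at the centre of the pathway, had no row under its name and was not analysed here. CD4, a coreceptor, had a row but stayed below the level required.

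The cells were Jurkat, a human T-acute lymphoblastic leukemia line, in which CBAP (gene symbol TMEM102) had been depleted in 1 of 2 ways, and RNA was sequenced from 8 libraries, 2 for each of 4 conditions. In the shRNA set, cells carrying a lentiviral control shRNA (sh-Ctrl) were compared with cells carrying an shRNA against CBAP (CBAP knockdown). In the CRISPR set, cells in which CBAP had been targeted with CRISPR/Cas9, described in the study as cells expressing GFP alone (CBAP knockout), were compared with knockout cells given a CBAP-GFP fusion (CBAP-reconstituted), so that both conditions of this set carry the targeted allele and a GFP. The shRNA cells were selected with puromycin and the CRISPR cells were grown from sorted single cells, and the labels do not say whether the libraries of a condition came from separate clones or cultures. The method of depletion, the clone and the set cannot be told apart, and p-values measure only the spread between libraries, which may be technical.

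When the receptor is engaged, the kinase LCK phosphorylates the cytoplasmic tails of the CD3 chains and CD247, and ZAP70 binds these tails and phosphorylates the adaptors LAT and LCP2. The assembled complex activates PLCG1, whose products raise calcium, which acts on the NFAT factors, and diacylglycerol, which acts on RASGRP1 and PRKCQ. CD28, CD2, CD5, CD6 and CD7 tune the signal from the cell surface, and the phosphatases PTPN6 and PTPN22, the kinase CSK and the ubiquitin ligases CBL and CBLB restrain it. Jurkat cells are a common model for this pathway, and the labels name no receptor stimulus for these libraries.

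TMEM102 was listed at 4.07 and 4.74 FPKM in sh-Ctrl, at 2.69 and 2.89 in CBAP knockdown, and at 0 in every library of both CRISPR conditions. The knockdown libraries were below both sh-Ctrl libraries (log2 fold change -0.51 ± 0.0964 SE, limma adjusted p = 0.029), a call that was lost without sh-Ctrl replicate 2 (-0.42) and without either library of either CRISPR condition, where the change stayed at -0.51. The fit shares its spread over all conditions, so the 4 listed zeros enter this SE. With the shRNA libraries alone the limma adjusted p was 0.21. The listing at 0 in the reconstituted libraries is at odds with their label if read as no RNA, but it can be a failed estimate. The study reports that CBAP-GFP partially rescued the proliferation of knockout cells in culture and leukemogenesis in mice. It also reports immunoblots of the expressed proteins, and more phosphorylation of TSC2 and p70S6K in reconstituted than in knockout cells. The label of these libraries cannot be checked from the listing at 0. The 2 reconstituted libraries are called the libraries labelled CBAP-reconstituted throughout. Across all genes, these 2 libraries were the closest pair of replicates (Pearson r = 0.992 across genes, against 0.923 to 0.953 in the other conditions), and such a close pair lowers the spread that all tests share. Of the 10 T-cell markers, all had rows, and TRAC was listed at 0 in every library and BCL11B in sh-Ctrl replicate 1 and CBAP knockdown replicate 1. Their summed level was 1354 to 1362 FPKM in the libraries labelled CBAP-reconstituted, 1584 to 1763 in CBAP knockdown, 1610 to 1616 in sh-Ctrl and 1868 to 2356 in CBAP knockout. All but TRAC, BCL11B and TCF7 are members, so the sum is no separate check of cell identity. TCF7 was at 50.1 and 51.2 FPKM in the libraries labelled CBAP-reconstituted and between 121 and 235 elsewhere. Of the 9 markers tested, only 4 (CD2, CD7, CD5 and TCF7) were below every other library there. The highest knockout sum includes CD3E at 1022 FPKM. The table lists 0 in some library and at least 5 FPKM in another for 710 genes, so a listed 0 can be a failed estimate, and no fold change is given against it.

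The promoters below belong to those of the 6 members with the largest changes in the CRISPR set, among members with no listed 0, that had an entry in the RefSeq promoter table (build GRCh38.p14). They are shown because CD28, CD2, PTPN22 and PTPN6 moved together in that set. Each line gives the 250 bases before a start site, 5′ to 3′ on the strand of the gene. Capitals mark matches, on either strand, to a motif of the RUNX factors with the letters TGTGGT. They also mark, on either strand, a motif of the GATA factors spelled AGATAA. The last motif marked is an E-box, CAGGTG on either strand, and no match overlapped another in these windows.
CD28, chr2:203706389-203706638, plus strand: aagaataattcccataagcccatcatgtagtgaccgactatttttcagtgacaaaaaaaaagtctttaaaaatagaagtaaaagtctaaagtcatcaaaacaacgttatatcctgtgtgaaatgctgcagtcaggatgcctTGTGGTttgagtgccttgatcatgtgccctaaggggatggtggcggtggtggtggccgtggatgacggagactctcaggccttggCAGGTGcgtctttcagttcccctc
CD2, chr1:116754180-116754429, plus strand: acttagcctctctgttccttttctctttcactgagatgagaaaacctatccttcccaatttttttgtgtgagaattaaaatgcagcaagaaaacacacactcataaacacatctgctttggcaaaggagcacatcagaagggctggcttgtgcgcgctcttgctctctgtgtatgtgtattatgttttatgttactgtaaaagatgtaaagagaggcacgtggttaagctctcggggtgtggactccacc
PTPN22, chr1:113871713-113871962, minus strand: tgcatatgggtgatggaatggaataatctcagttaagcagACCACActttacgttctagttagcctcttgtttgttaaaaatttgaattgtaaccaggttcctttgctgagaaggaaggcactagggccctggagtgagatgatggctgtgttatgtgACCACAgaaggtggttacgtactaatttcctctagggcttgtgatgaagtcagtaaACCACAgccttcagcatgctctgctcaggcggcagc
PTPN6, first start site, chr12:6946327-6946576, plus strand: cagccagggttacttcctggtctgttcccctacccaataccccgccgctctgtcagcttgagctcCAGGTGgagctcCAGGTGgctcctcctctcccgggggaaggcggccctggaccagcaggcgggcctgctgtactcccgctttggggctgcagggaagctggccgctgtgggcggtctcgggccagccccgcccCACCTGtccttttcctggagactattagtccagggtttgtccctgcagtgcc
PTPN6, second start site, chr12:6951106-6951355, plus strand: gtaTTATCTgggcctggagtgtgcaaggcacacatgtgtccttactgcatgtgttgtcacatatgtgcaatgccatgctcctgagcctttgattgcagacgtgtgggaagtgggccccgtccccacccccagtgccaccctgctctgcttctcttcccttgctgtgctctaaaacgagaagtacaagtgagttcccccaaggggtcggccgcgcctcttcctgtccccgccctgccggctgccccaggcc
The CD28 window held 1 RUNX and 1 E-box match, the PTPN22 window 3 RUNX matches, the PTPN6 windows 3 E-box matches and 1 GATA match, and the CD2 window none. Of all 35116 windows of this length, 11.0% held the RUNX letters, 9.17% the GATA letters and 17.5% the E-box letters. Among the 53 windows of the 30 members with an entry, 7 held RUNX, 3 GATA and 15 E-box letters. A match is a description of the letters in the window.

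**Figure D1:**
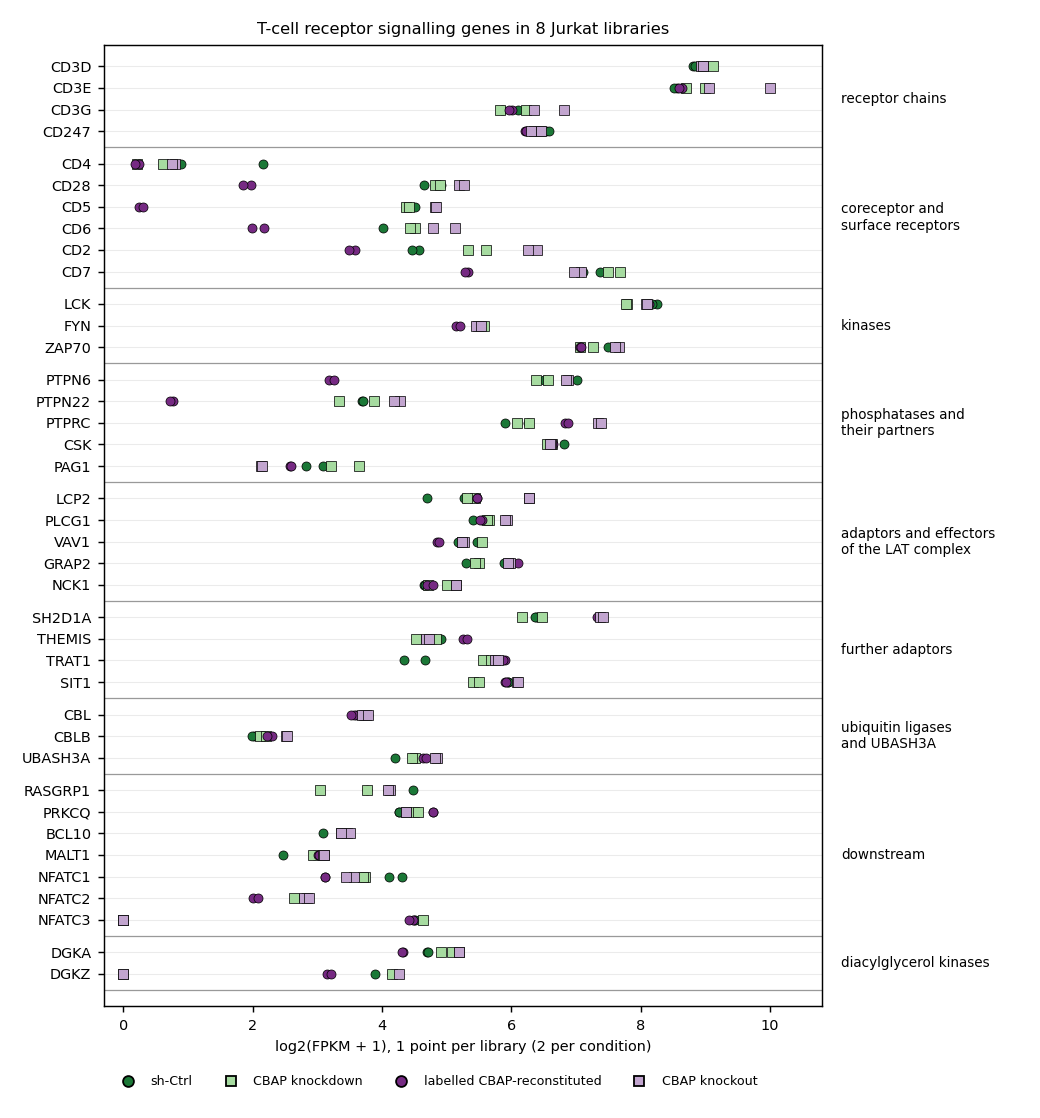
Level of each of the 39 members with a row, as log2(FPKM + 1) on the horizontal axis, with 1 point per library and 2 libraries per condition, grouped by role. The libraries labelled CBAP-reconstituted (dark purple circles) lie far to the left for CD28, CD5, CD6, PTPN6 and PTPN22, and the points at 0 belong to NFATC3 and DGKZ.

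Of the 4 receptor chains, CD3E alone was called, in the CRISPR set, where 49.9% of all genes tested were called. CD3D, a signalling chain of the complex, was at 446 and 458 FPKM in sh-Ctrl, 497 and 553 in CBAP knockdown, 492 and 494 in the libraries labelled CBAP-reconstituted, and 490.1 and 502 in CBAP knockout. CD247, the zeta chain, was at 92.3 and 94.4, 80.5 and 86.4, 73.5 and 74.0, and 87.3 and 78.1 FPKM in the same order of conditions. Neither passed the test in either set, although the knockdown libraries lay above both sh-Ctrl libraries for CD3D and below them for CD247. CD3E was at 378 and 364 FPKM in sh-Ctrl, 416 and 511 in CBAP knockdown, 397 and 384 in the libraries labelled CBAP-reconstituted, and 530.3 and 1022 in CBAP knockout. Both knockout libraries were higher than the rest, replicate 1 by little (530.3 against 511). The fitted change in the CRISPR set was 0.91 ± 0.296 (adjusted p = 0.047), and it was no longer called when any 1 library other than CBAP knockout replicate 1 was left out. CD3G stood at 67.9 and 57.0, 55.8 and 74.3, 63.4 and 61.3, and 111 and 80.5 FPKM, and did not pass in the CRISPR set (0.60 ± 0.201, adjusted p = 0.053). These 3 CD3 genes are neighbours on chromosome 11 (GRCh37), with 22899 bases between CD3E and CD3D and 1638 between CD3D and CD3G.

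The surface receptors showed the clearest pattern. All 5 tested members were lower in both libraries labelled CBAP-reconstituted than in every other library, against 10.2% of all genes tested. All 5 were called higher in CBAP knockout than in those libraries, and 1 of the 5, CD2, was called in the shRNA set. Over all genes tested, 23.9% were called higher in CBAP knockout, and 12.3% were called in the shRNA set. CD5, an inhibitory receptor of T cells (GRCh37 chr11:60869961-60895324), was at 20.5 and 21.7 FPKM in sh-Ctrl, 19.7 and 20.3 in CBAP knockdown, 0.180 and 0.231 in the libraries labelled CBAP-reconstituted, and 27.1 and 27.4 in CBAP knockout. The lowest other library was 85.2 times the highest of those 2. On the log2(FPKM + 1) scale, which understates changes of low values, the difference between CBAP knockout and the libraries labelled CBAP-reconstituted was 4.55 ± 0.0602 (adjusted p = 9.1e-07), against -0.07 ± 0.0602 between CBAP knockdown and sh-Ctrl (adjusted p = 0.45). CD6, a related scavenger receptor that starts 5′ of CD5 on the same strand (chr11:60739152-60787849, with 82111 bases between them), was at 15.1 and 21.3, 21.7 and 20.6, 2.96 and 3.51, and 34.0 and 26.8 FPKM in the same order. Its knockout libraries were above all others, and the change in the CRISPR set was 2.88 ± 0.186 (adjusted p = 0.0002). CD28, the main costimulatory receptor (chr2:204571198-204603635), was at 24.1 and 29.2 FPKM in sh-Ctrl, 27.4 and 28.8 in CBAP knockdown, 2.93 and 2.59 in the libraries labelled CBAP-reconstituted, and 35.5 and 37.5 in CBAP knockout. The sh-Ctrl and knockdown libraries overlapped (0.08 ± 0.104, adjusted p = 0.65), while the CRISPR set differed by 3.32 ± 0.104 (adjusted p = 1.7e-05).

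CD2, an adhesion and costimulatory receptor (chr1:117297052-117311851), was higher in the CBAP-deficient libraries of both sets. It was at 22.7 and 21.2 FPKM in sh-Ctrl, 47.7 and 39.1 in CBAP knockdown, 11.0 and 10.3 in the libraries labelled CBAP-reconstituted, and 83.7 and 75.9 in CBAP knockout. No library of either deficient condition overlapped an expressing one. The change was 0.95 ± 0.109 in the shRNA set (adjusted p = 0.0089) and 2.80 ± 0.109 in the CRISPR set (adjusted p = 3.5e-05), and the difference of these changes was -1.85 ± 0.154 (adjusted p = 0.00093). CD7, a marker of the T lineage (chr17:80272744-80275484), was at 137 and 165 FPKM in sh-Ctrl, 204 and 179.8 in CBAP knockdown, 39.0 and 38.1 in the libraries labelled CBAP-reconstituted, and 134 and 124 in CBAP knockout. Its knockout libraries lay below the sh-Ctrl libraries, and the change in the CRISPR set was 1.71 ± 0.109 (adjusted p = 0.00018). CD4 was at 3.47 and 0.852 FPKM in sh-Ctrl and between 0.128 and 0.745 in the other 6 libraries, too low to test.

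Some markers of other cell types moved with this pattern. The rows for 2 of 7 B-cell markers (CD79A and BLK) summed to 3.90 to 4.18 FPKM in the libraries labelled CBAP-reconstituted and to 22.5 to 32.3 FPKM in the other conditions. Of the 2 of 6 NK-cell markers with a row, NKG7 was at 0.539 and 0.296 FPKM in those libraries and between 4.79 and 19.8 elsewhere. NCAM1 went the other way, at 0.203 and 0.265 FPKM in those libraries and at most 0.105 elsewhere. The 7 thymocyte and T-ALL markers, by contrast, summed to 262 to 265 FPKM in those libraries, to 136 to 246 in sh-Ctrl, to 85.1 to 119.6 in CBAP knockdown and to 85.1 to 112 in CBAP knockout. Markers of the myeloid lineage (1 of 8 with a row) and the erythroid lineage (2 of 5) reached at most 1.93 and 6.56 FPKM in any library. The part of these markers in the result was not tested, and in bulk RNA fewer cells of a type and less RNA per cell cannot be told apart.

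**Figure D2:**
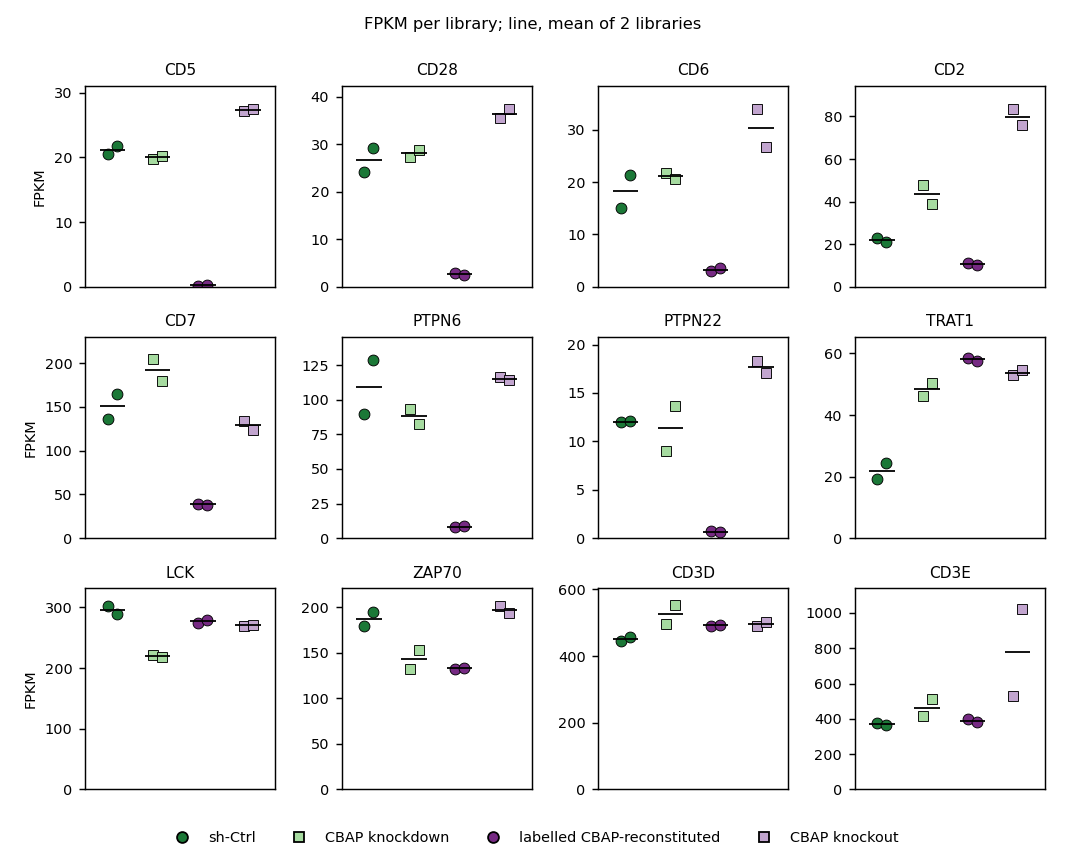
FPKM in each library (points) and the mean of the 2 libraries of each condition (lines) for 12 members, each panel with its own vertical axis from 0. CD5, CD28, CD6, CD2, CD7, PTPN6 and PTPN22 are lowest in the libraries labelled CBAP-reconstituted, TRAT1 is lowest in sh-Ctrl, and LCK is lowest in CBAP knockdown.

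Among the kinases, LCK and ZAP70 were lower in CBAP knockdown than in sh-Ctrl. LCK was at 303 and 289 FPKM in sh-Ctrl, 221 and 218 in CBAP knockdown, 275 and 279 in the libraries labelled CBAP-reconstituted, and 269.9 and 272 in CBAP knockout. Its change was -0.43 ± 0.0436 in the shRNA set (adjusted p = 0.0067) and -0.03 ± 0.0436 in the CRISPR set (adjusted p = 0.57), and these changes differed (-0.40 ± 0.0617, adjusted p = 0.0068). ZAP70 was at 180.1 and 195 FPKM in sh-Ctrl, 132 and 153 in CBAP knockdown, 133 and 134 in the libraries labelled CBAP-reconstituted, and 201 and 194 in CBAP knockout. The knockdown libraries thus lay near those labelled CBAP-reconstituted, and sh-Ctrl near CBAP knockout. ZAP70 moved in opposite directions in the 2 sets, by -0.39 ± 0.081 (adjusted p = 0.036) and 0.57 ± 0.081 (adjusted p = 0.0028). FYN, a kinase related to LCK, was between 42.6 and 46.9 FPKM in the other 6 libraries and at 34.3 and 35.9 in those labelled CBAP-reconstituted (0.31 ± 0.0608 in the CRISPR set, adjusted p = 0.0085).

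Of the phosphatases and their partners, PTPN6 and PTPN22 followed the surface receptors. PTPN6, also called SHP-1 (GRCh37 chr12:7055631-7070479), was at 90.0 and 129 FPKM in sh-Ctrl, 93.4 and 82.4 in CBAP knockdown, 8.05 and 8.56 in the libraries labelled CBAP-reconstituted, and 117 and 114 in CBAP knockout. PTPN22, which acts on LCK and ZAP70 (chr1:114356433-114414375), was at 12.0 and 12.1, 9.05 and 13.7, 0.694 and 0.651, and 18.4 and 17.1 FPKM. The lowest other library was 9.63 times the highest of those labelled CBAP-reconstituted for PTPN6 and 13.0 times for PTPN22. In the CRISPR set the changes were 3.64 ± 0.167 (adjusted p = 6e-05) and 3.48 ± 0.174 (adjusted p = 7.9e-05), and neither gene was called in the shRNA set (-0.29 ± 0.167 and -0.10 ± 0.174). PTPRC, or CD45, which activates LCK, ran differently, at 58.8 and 75.5 FPKM in sh-Ctrl, 76.3 and 66.9 in CBAP knockdown, 113 and 116 in the libraries labelled CBAP-reconstituted, and 161 and 167 in CBAP knockout. Both CRISPR conditions were above both shRNA conditions, and CBAP knockout was the higher of the CRISPR pair (0.51 ± 0.127, adjusted p = 0.019). CSK, the kinase that inhibits LCK, was between 92.7 and 112 FPKM in all libraries and was called in neither set. PAG1, the membrane adaptor that holds CSK, was at 7.49 and 6.11 FPKM in sh-Ctrl, 8.22 and 11.5 in CBAP knockdown, 4.96 and 5.02 in the libraries labelled CBAP-reconstituted, and 3.36 and 3.42 in CBAP knockout. It passed in neither set, but the difference of its changes did (0.91 ± 0.228, adjusted p = 0.03).

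The adaptors and effectors around LAT were not called in the shRNA set, and 3 of the 5 tested (LCP2, PLCG1 and NCK1) were called higher in CBAP knockout, where 49.9% of all genes tested were called and 23.9% were called higher. LCP2, or SLP-76, was at 24.8 and 37.7 FPKM in sh-Ctrl, 42.3 and 38.9 in CBAP knockdown, 43.3 in both libraries labelled CBAP-reconstituted, and 76.7 and 76.8 in CBAP knockout. The knockout libraries were well above all others (0.81 ± 0.181, adjusted p = 0.014). PLCG1, the phospholipase of the pathway, rose from 45.9 and 44.7 to 59.9 and 58.8 FPKM in the CRISPR set (0.38 ± 0.0753, adjusted p = 0.0087), and NCK1, an adaptor to the cytoskeleton, from 25.0 and 26.8 to 34.4 in both libraries (0.40 ± 0.101, adjusted p = 0.021). VAV1, an exchange factor, had changes of 0.07 and 0.38, and GRAP2, the adaptor that joins LCP2 to LAT, of -0.12 and -0.08 in the shRNA and CRISPR sets, none of which passed. For none of these 5 genes did the difference between the sets pass the test.

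Of the 4 further adaptors, 2 were called in each set. These were TRAT1 and SIT1 in the shRNA set, and SIT1 and THEMIS in the CRISPR set. Of all genes tested, 12.3% were called between CBAP knockdown and sh-Ctrl. Between CBAP knockout and the libraries labelled CBAP-reconstituted, that share was 49.9%. TRAT1, a transmembrane adaptor bound to the receptor complex (GRCh37 chr3:108541617-108573852), was at 19.2 and 24.5 FPKM in sh-Ctrl, 46.0 and 50.6 in CBAP knockdown, 58.5 and 57.6 in the libraries labelled CBAP-reconstituted, and 52.9 and 54.5 in CBAP knockout. The sh-Ctrl libraries stood below the other 6. The change was 1.12 ± 0.115 in the shRNA set (adjusted p = 0.0069), the largest called there among the members, and -0.11 ± 0.115 in the CRISPR set (adjusted p = 0.47), and these differed by 1.23 ± 0.163 (adjusted p = 0.0042). SIT1, another transmembrane adaptor, which restrains the signal, was at 60.8 and 60.5 FPKM in sh-Ctrl, 41.3 and 44.1 in CBAP knockdown, 58.9 and 59.5 in the libraries labelled CBAP-reconstituted, and 66.7 and 67.5 in CBAP knockout. It fell by 0.50 ± 0.0484 on the log2 scale in the shRNA set (adjusted p = 0.0058) and rose by 0.18 ± 0.0484 in the CRISPR set (adjusted p = 0.027). THEMIS, which acts in thymocyte selection, was at 29.2 and 27.1, 22.0 and 27.7, 37.04 and 38.9, and 24.6 and 25.6 FPKM, and was called lower in CBAP knockout (-0.58 ± 0.11, adjusted p = 0.0078). SH2D1A, the adaptor SAP, separated the sets and not the CBAP conditions. It was between 71.0 and 87.6 FPKM in the shRNA set and between 159 and 171 in the CRISPR set, with changes of -0.05 and 0.05 that did not pass.

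Of the ubiquitin ligases and UBASH3A, a negative regulator that binds CBL, CBLB alone was called, in the CRISPR set (49.9% of all genes tested). It was at 3.91 and 3.66 FPKM in the libraries labelled CBAP-reconstituted and 4.75 and 4.80 in CBAP knockout (0.27 ± 0.0741, adjusted p = 0.027). CBL was between 10.5 and 12.8 FPKM and UBASH3A between 17.3 and 27.9 FPKM over all libraries.

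Downstream of the receptor, PRKCQ and NFATC1 were called in both sets, in opposite directions. Calls in both sets were made for 8.24% of all genes tested. PRKCQ, the protein kinase C that leads to NF-κB, was at 18.2 in both sh-Ctrl libraries, 21.6 and 22.6 FPKM in CBAP knockdown, 26.7 and 26.5 in the libraries labelled CBAP-reconstituted, and 19.7 and 19.8 in CBAP knockout. Its changes were 0.27 ± 0.0486 (adjusted p = 0.027) and -0.41 ± 0.0486 (adjusted p = 0.0014). NFATC1, a transcription factor that calcineurin activates, was at 18.7 and 16.2 FPKM in sh-Ctrl, 12.3 and 12.1 in CBAP knockdown, 7.72 and 7.64 in the libraries labelled CBAP-reconstituted, and 10.9 and 9.83 in CBAP knockout. It was highest in sh-Ctrl, and changed by -0.48 ± 0.0876 in the shRNA set (adjusted p = 0.027) and by 0.39 ± 0.0876 in the CRISPR set (adjusted p = 0.014). NFATC2 was at 3.01 and 3.22 FPKM in the libraries labelled CBAP-reconstituted and between 5.21 and 6.30 in the other 6 (0.79 ± 0.0911 in the CRISPR set, adjusted p = 0.0013). NFATC3 was listed at 0 in CBAP knockdown replicate 2 and in both CBAP knockout libraries, and between 20.3 and 23.9 FPKM in the other 5. Its call in the CRISPR set rests on those listed zeros, and no fold is given. RASGRP1, which links diacylglycerol to RAS, was at 21.3 and 12.7 FPKM in sh-Ctrl, 7.26 and 12.6 in CBAP knockdown and between 16.1 and 16.5 in the CRISPR set. Its shRNA-set change of -0.72 ± 0.302 did not pass (adjusted p = 0.18), since replicates of both shRNA conditions differed widely. BCL10 and MALT1, partners in the complex that activates NF-κB, were between 7.51 and 10.4 and between 4.55 and 7.59 FPKM and were called in neither set.

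DGKA, a kinase that removes diacylglycerol, was called higher in both sets. It was at 24.8 and 25.2 FPKM in sh-Ctrl, 29.1 and 32.7 in CBAP knockdown, 19.1 and 18.9 in the libraries labelled CBAP-reconstituted, and 35.7 in both CBAP knockout libraries. The changes were 0.29 ± 0.0654 (adjusted p = 0.044) and 0.87 ± 0.0654 (adjusted p = 0.00031), with no overlap between deficient and expressing libraries. DGKZ, its paralog, was listed at 0 in CBAP knockdown replicate 2 and CBAP knockout replicate 1, at 7.91 and 8.24 FPKM in the libraries labelled CBAP-reconstituted, and between 13.9 and 18.1 FPKM in the other 4.

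Counted together, 8 of the 38 tested members were called between CBAP knockdown and sh-Ctrl (adjusted p under 0.05), against 12.3% of all genes tested. CD2, TRAT1, DGKA and PRKCQ were higher and LCK, ZAP70, NFATC1 and SIT1 lower, where 3.62% of all genes were higher and 8.7% lower. That split of all genes, 414 higher among 1408 called, became 830 of 1656 under quantile normalization and 808 of 1653 under median-ratio scaling. The median change of the members was 0.06, against -0.06 for all genes tested. The count was 4 without either library labelled CBAP-reconstituted or either CBAP knockout library (CD2, LCK, TRAT1 and SIT1 kept), 12 without CBAP knockdown replicate 1, and 0 when the 4 shRNA libraries were fitted alone. DGKA, PRKCQ and ZAP70 were also lost without either sh-Ctrl library, and NFATC1 without sh-Ctrl replicate 1.

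In the CRISPR set 22 members were called, 19 higher and 3 lower in CBAP knockout, the lower ones being PRKCQ, THEMIS and NFATC3. Of all genes tested, 49.9% were called, 23.9% higher and 25.9% lower. The median change was 0.29 for the members and 0 for all genes. The count was 13 and 12 without replicate 1 and replicate 2 of the libraries labelled CBAP-reconstituted, and 15 without either CBAP knockout library. CBLB, LCP2, NCK1, NFATC3, PTPRC and SIT1 were lost without any 1 of these 4 libraries. NFATC1 was lost without any of them but CBAP knockout replicate 2, FYN without that library or replicate 1 labelled CBAP-reconstituted, and PLCG1 and THEMIS without replicate 2 labelled CBAP-reconstituted.

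The change in the shRNA set minus the change in the CRISPR set passed the test for 17 members, against 33.8% of all genes. PAG1, PRKCQ and TRAT1 had a positive difference (15.5% of all genes) and 14 members a negative one (18.3%). The median difference was -0.36 for the members and -0.05 for all genes. FYN and PAG1 lost their call without sh-Ctrl replicate 2 or any 1 library of the CRISPR set, and FYN also without sh-Ctrl replicate 1 or CBAP knockdown replicate 1. Called in both sets were 6 members, against 8.24% of all genes, and CD2 and DGKA alone among them had the same direction in both (5.76% of all genes), while ZAP70, PRKCQ, NFATC1 and SIT1 had opposite directions.

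**Figure D3:**
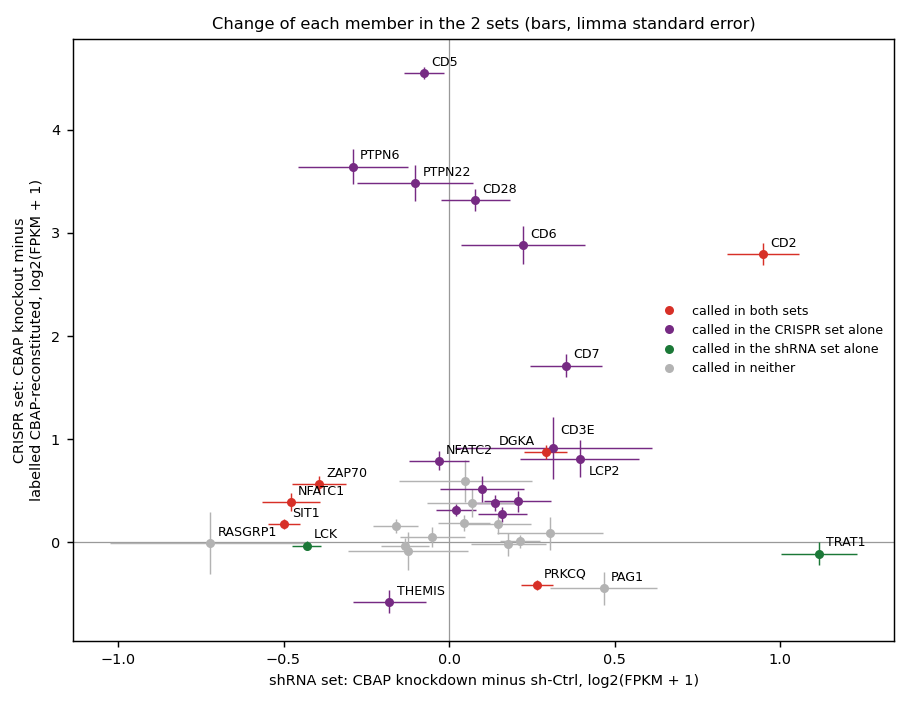
Change of each of the 36 tested members with no listed 0 in the shRNA set (horizontal axis) and in the CRISPR set (vertical axis), both as differences of log2(FPKM + 1), with bars for the limma standard error. CD2 and DGKA lie above 0 on both axes and are called in both sets, while CD5, CD28, PTPN6 and PTPN22 lie high on the vertical axis and near 0 on the horizontal one.

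With the 4 CBAP-deficient libraries set against the 4 CBAP-expressing ones, the classes used in the study, limma called 0 members, with 9 at an unadjusted p under 0.05, and 0.621% of all genes were called. This fit held no term for the set, so differences between the sets entered its spread. With the set as a covariate, 3 members (CD2, DGKA and LCP2) and 1404 of 11427 genes were called. Without that covariate, CD2 was closest (1.87 ± 0.341, adjusted p = 0.064), followed by DGKA (0.58 ± 0.129, adjusted p = 0.081). The 2 classes did not overlap for 5 members, CD3E, CD2, PLCG1 and DGKA with the deficient libraries higher and LCK with them lower, against 14.9% of all genes. CD2 was called under 4 of the alternatives, among them both other scalings.

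The libraries labelled CBAP-reconstituted were below every other library for 14 of the 38 members, against 10.2% of all genes tested: CD247, CD28, CD5, CD6, CD2, CD7, FYN, VAV1, CBL, PTPN6, PTPN22, NFATC1, NFATC2 and DGKA. They were above every other library for 4 members, GRAP2, PRKCQ, THEMIS and TRAT1, against 29.7%. For CD28, CD5, CD6, PTPN6 and PTPN22 every other library was at least 4 times as high, a pattern held by 0.928% of all genes. These 5 members had CBAP knockout means of 1.06 to 1.67 times the sh-Ctrl means. That the libraries labelled CBAP-reconstituted stood apart from both follows from how these 5 were picked. The pattern was seen in the data before it was counted, and it carries no test.

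Among 77 other genes of the pathway, 73 had rows and 68 were tested. In the shRNA set 5 were higher and 5 lower, and in the CRISPR set 33 were higher and 11 lower in CBAP knockout. Over all genes tested, 3.62% were higher and 8.7% lower in the shRNA set, and 23.9% were higher and 25.9% lower in the CRISPR set. Their median changes were 0.07 and 0.19, against -0.06 and 0 for all genes tested. SKAP1, an adaptor to integrins, was at 6.74 and 5.96 FPKM in sh-Ctrl, 10.7 and 10.5 in CBAP knockdown, 0.226 and 0.527 in the libraries labelled CBAP-reconstituted, and 16.0 and 16.1 in CBAP knockout. It was called in both sets in the same direction, by 0.66 ± 0.119 (adjusted p = 0.026) and 3.64 ± 0.119 (adjusted p = 2e-05). The SKAP1 call in the shRNA set was lost in 8 of 18 alternatives, with changes from 0.46 to 0.74, among them those without either sh-Ctrl library, CBAP knockdown replicate 1 or either CBAP knockout library. GAB2, a scaffold adaptor, was at 22.9 and 23.7 FPKM in CBAP knockout and at 0.557 to 1.21 in the other 6 libraries (3.74 ± 0.126 in the CRISPR set, adjusted p = 2.2e-05). PTPRCAP, which binds CD45, was listed at 0 in both libraries labelled CBAP-reconstituted and was between 162 and 236 FPKM elsewhere. PAK2, a kinase downstream of RAC and CDC42, was listed at 0 in both sh-Ctrl libraries and was between 41.1 and 71.5 FPKM elsewhere, and CD27, a costimulatory receptor, was listed at 0 in the same libraries and reached at most 3.68 FPKM.

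Genes that receptor engagement induces were listed as a read-out: of 31, 20 had rows and 15 were tested. In the shRNA set 2 were higher and 3 lower, and in the CRISPR set 9 were higher and 1 lower in CBAP knockout, where the shares of all genes called were 12.3% and 49.9% (23.9% higher in CBAP knockout). Their median changes were -0.07 and 0.55, against -0.06 and 0 for all genes tested. CD69, an early activation antigen, was at 7.53 and 9.60 FPKM in sh-Ctrl, 16.2 and 14.8 in CBAP knockdown, 7.88 and 8.32 in the libraries labelled CBAP-reconstituted, and 12.8 in both CBAP knockout libraries. It was called higher in both sets (0.79 ± 0.114, adjusted p = 0.016, and 0.60 ± 0.114, adjusted p = 0.0078). The immediate-early factors EGR1 and JUN were lower in CBAP knockdown, by -0.76 ± 0.162 (adjusted p = 0.039) and -0.66 ± 0.105 (adjusted p = 0.02). Both were low: EGR1 was at 2.56 and 1.60 FPKM in sh-Ctrl and 0.921 and 0.684 in CBAP knockdown. JUN was at 2.15 and 2.69 FPKM in sh-Ctrl and 1.09 and 1.22 in CBAP knockdown. The EGR1 call was lost in 10 of 17 alternatives, with changes from -1.25 to -0.28, among them quantile normalization and those without sh-Ctrl replicate 1, CBAP knockdown replicate 2 or any 1 library of the CRISPR set. The shRNA-set calls of JUN and CD69 were each lost in 3, without either library labelled CBAP-reconstituted and with the set alone. In CBAP knockout JUN was higher (0.67 ± 0.105, adjusted p = 0.0038), as were the NF-κB targets IER3 (1.76 ± 0.172, adjusted p = 0.00077), NFKBID (1.49 ± 0.192, adjusted p = 0.0019) and TNFAIP3 (1.22 ± 0.259, adjusted p = 0.011). The TNFAIP3 call was lost without either library labelled CBAP-reconstituted and without CBAP knockout replicate 2, with changes from 0.95 to 1.31 over its alternatives.

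**Figure D4:**
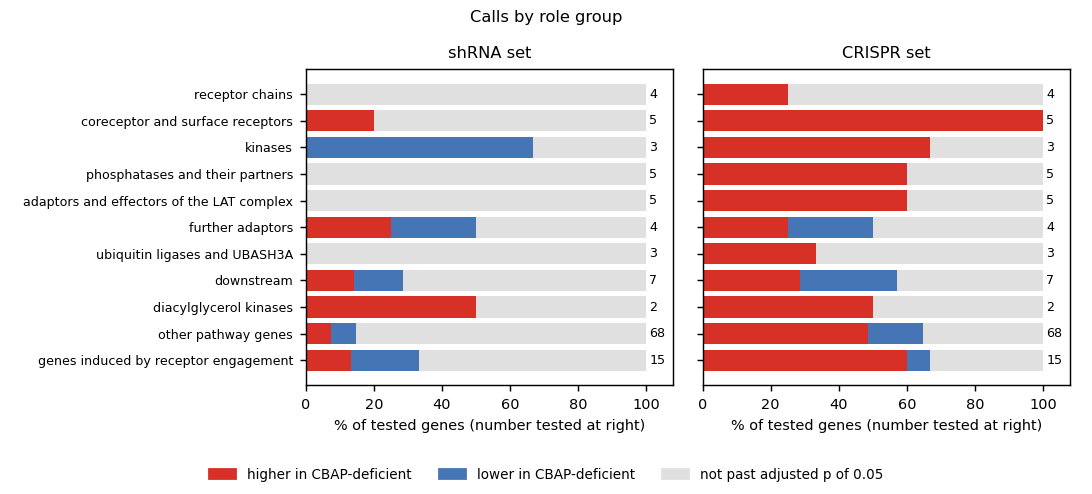
Percentage of the tested genes of each role group, and of the 2 lists of further pathway genes, that were called higher (red) or lower (blue) in the CBAP-deficient condition of each set, with the number tested at the right of each bar. All 5 tested surface receptors are higher in CBAP knockout than in the libraries labelled CBAP-reconstituted (23.9% of all genes tested), and 2 of 3 kinases are lower in CBAP knockdown than in sh-Ctrl (8.7% of all genes tested).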

How the data were processed

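RNA of 8 Jurkat libraries was sequenced as paired-end reads. Per the study's methods and labels, reads were aligned to hg19 with TopHat, and the authors computed the deposited FPKM values with Cuffdiff; the annotation is not given in the sources used here, and the table holds no counts, so the depth of each library is unknown. FPKM sums per library were 362082 to 434742. Levels were analysed as log2(FPKM + 1) for genes with a mean of at least 1 FPKM, with limma 3.58.1 (empirical Bayes with a trend) and 1 mean per condition, in R 4.3.3. Adjusted p is Benjamini-Hochberg over 11427 genes, and a gene is called under 0.05. Cuffdiff's own test needs fragments and was not run. The members and lists were chosen with earlier results of these data known. Values per library are given for members called in both sets, those with the 6 largest changes in each set, those whose changes differ between sets with opposite signs, those listed at 0 and the core of the pathway. Of the other lists, the 3 largest changes in each set are named. The script was tested on simulated data. Gene positions are from GENCODE v44 lifted to GRCh37. Replicate numbers were not used to pair the libraries in the fit reported. Alternatives changed the pseudocount, the filter, the scaling, the variance model, the replicate block and the libraries fitted. Antisense or overlapping genes could share reads where the protocol does not mark strand, which the sources do not state.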

Additional observations from a re-analysis of the deposited data

Results flagged for a closer look

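The change in the shRNA set (CBAP knockdown minus sh-Ctrl) minus the change in the CRISPR set (CBAP knockout minus the libraries labelled CBAP-reconstituted) passed the interaction test of limma for 17 members. Among the other named genes with no listed 0, it passed for 5. Each of these values is given here on the log2(FPKM + 1) scale. PTPRCAP, PAK2 and CD27 passed as well, but these calls rest on listed zeros and no value is given. Of the surface receptors, CD5 differed by -4.63, CD28 by -3.24, CD6 by -2.66, CD2 by -1.85 and CD7 by -1.36. Of the kinases and phosphatases, PTPN6 differed by -3.93, PTPN22 by -3.59, ZAP70 by -0.96, LCK by -0.40 and FYN by -0.29. Among the adaptors and downstream genes, NFATC1 differed by -0.87, NFATC2 by -0.82, SIT1 by -0.67 and DGKA by -0.58, and TRAT1 by 1.23, PAG1 by 0.91 and PRKCQ by 0.68. Of the genes outside the members, GAB2 differed by -3.45, SKAP1 by -2.98, NFKBID by -1.69, JUN by -1.33 and IER3 by -1.06. The set, the clones and the method of depletion cannot be told apart in these differences.

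Within the 4 CBAP-deficient libraries, NFATC3 stood at 23.9 FPKM in CBAP knockdown replicate 1 while the other 3 were listed at 0. This was the 1 library flagged as far from the rest among 44 classes of 4 libraries. The flag rests on listed zeros, which can be failed estimates. About 2.2 flags would arise by chance if the libraries of a class were alike. Each class joins libraries of different conditions, so that figure is no yardstick here.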

How the results depend on the processing

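Within a set, the estimated change does not depend on the filters, the variance model, the replicate block or the libraries of the other set. Those alternatives could alter only the call. No member called under the settings reported, with no listed 0, changed direction under any alternative. Of these calls, 0 of 8 in the shRNA set, 11 of 21 in the CRISPR set and 15 of 17 for the difference between the sets held under every alternative; in the shRNA set CD2, LCK, TRAT1 and SIT1 were lost in a single one, the fit of that set alone, and for the difference FYN and PAG1 were lost in some. In the shRNA set 5 members were called with a replicate block, and 0 with the 4 libraries of the set alone. Leaving out 1 library at a time gave 4 to 12 members there, 12 to 24 in the CRISPR set, 15 to 21 for the difference and 0 to 1 for the 2 classes, the 1 being NFATC3 without CBAP knockdown replicate 1. With the 2 classes, 1 member was called with genes listed at 0 left out, with quantile normalization and with median-ratio scaling (CD2 each time), 3 with the set as a covariate (CD2, DGKA and LCP2), and 1 (TRAT1) with both libraries labelled CBAP-reconstituted left out, an alternative chosen after seeing the data. TMEM102 in the shRNA set was no longer called with a pseudocount of 0.1 (-0.64), with the replicate block (-0.51) or with the set alone (-0.51), and lay between -0.60 and -0.42 with 1 library left out. Of the named genes outside the members, the shRNA-set calls of SKAP1 and EGR1 were lost in 8 of 18 and 10 of 17 alternatives, and those of JUN and CD69 in 3 each. The cause of these shifts was not tested. Equal replicate numbers correlated at 0.15 between sh-Ctrl and CBAP knockdown and at 0.02 between the CRISPR conditions, and the labels do not say that they pair libraries; the block gave 21 members in the CRISPR set, 16 for the difference and 0 for the classes. Over all genes, the shRNA-set calls fell from 1408 to 776 with the block, to 306 and 308 without a library labelled CBAP-reconstituted and to 75 with the set alone, and the calls between classes ranged from 8 to 1404. Depth, and so the counting error of low values, is unknown.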
